A study of Mus musculus with 6 samples.

Results

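The colony-stimulating factor (CSF) system examined here comprises 7 genes: the 5 receptor genes Csf1r, Csf2ra, Csf2rb, Csf2rb2 and Csf3r and the 2 ligand genes Csf1 and Il34. They were picked by symbol from 49585 counted genes. All 7 were matched to the annotation, and 6 passed the filter on low counts; Il34 did not. The counts come from bulk RNA sequencing of microglia, the resident macrophages of the brain, sorted by flow cytometry from single male mice aged 3 months. The wild-type group (WT) has 3 libraries and the group labelled IRF8KO, named for knockout of the transcription factor IRF8, has 3, each from its own brain. No treatment is given. The allele, any Cre driver, the mouse strain and the sort gate are not given in the sources used here.

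CSF1R is a receptor tyrosine kinase on which microglia depend for survival, and it binds both CSF1 and interleukin-34, the latter made mainly by neurons. The receptor for GM-CSF (the product of Csf2) pairs a binding chain, CSF2RA, with the common beta chain, CSF2RB, which also serves interleukin-3 and interleukin-5. Mice carry a duplicate of that chain, Csf2rb2, which serves interleukin-3 alone. CSF3R, the receptor for G-CSF (the product of Csf3), is best known from neutrophils.

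Of the 6 tested genes, Csf1 rose and Csf2rb2 fell in IRF8KO, and the other 4 did not pass the test. That is 2 of 6, where 19.1% of all 11041 tested genes were called by edgeR's quasi-likelihood F test with p adjusted by Benjamini and Hochberg (BH) and called under 0.05; 9.64% of all tested genes were higher and 9.46% lower. The number of called genes, 2109, depended on single libraries: it was 4003 without WT replicate 3, 1308 without WT replicate 1, 1171 without WT replicate 2, 1147 without IRF8KO replicate 1 and 910 without IRF8KO replicate 3. With library size alone as the scaling, 25.4% of calls were higher, against 50.5% here. The same 2 members were the ones whose 3 IRF8KO values did not overlap the 3 WT values, which held for 37.9% of all tested genes. With so few members these shares are a description only. Across all tested genes the log2 fold change had a median of −0.11. In bulk libraries a change in the number of cells that make a transcript and a change in RNA per cell cannot be told apart.

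Because the beta-chain genes are near-copies that moved differently, their sequences are shown first. Csf2rb (chromosome 15, 78325752 to 78353847, plus strand) and Csf2rb2 (chromosome 15, 78282507 to 78305721, minus strand) are neighbours in the GRCm38 assembly. Their longest annotated coding sequences, 2688 and 2634 bases, were identical at 95.2% of 2628 aligned bases. The longest identical run covered 242 bases and started at coding base 2083 in both. Its opening 60 bases show a stretch from which a read cannot be assigned to either gene:
Csf2rb and Csf2rb2: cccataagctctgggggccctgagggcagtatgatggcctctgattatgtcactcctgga
The 60-base window with the most differences, 13, began at coding base 304 of Csf2rb and 307 of Csf2rb2 and shows where reads can be told apart. Capitals mark the differing bases:
Csf2rb: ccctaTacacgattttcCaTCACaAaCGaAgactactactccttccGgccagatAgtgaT
Csf2rb2: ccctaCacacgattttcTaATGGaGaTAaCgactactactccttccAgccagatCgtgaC
Of all 50-base words in the annotated transcripts of Csf2rb2, 18.9% also occurred in transcripts of another gene, Csf2rb among them, and 12.3% of those of Csf2rb did. Reads from such stretches cannot be assigned to 1 copy, so the split between them is uncertain to that extent.

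The promoters of both members that passed the test are shown because their transcripts moved in opposite directions. Promoter sequences from RefSeq (GRCm38.p6, 250 bases before to 50 after the start) were matched for 4 of the 7 genes: Csf1, Csf2ra, Csf2rb2 and Csf3r. They were searched on both strands for GAGGAA (the core preferred by PU.1, the ETS factor that IRF8 partners), GGAA-NN-GAAA (the composite of an ETS and an IRF site), GAAA-NN-GAAA (an IRF repeat) and TGANTCA (AP-1). The composite and the repeat can overlap each other. Matches of GAGGAA or its reverse complement are in capitals, and the other 3 motifs had no match in any of the 4 promoters:
Csf1 promoter, chr3:107760420-107760719, minus strand: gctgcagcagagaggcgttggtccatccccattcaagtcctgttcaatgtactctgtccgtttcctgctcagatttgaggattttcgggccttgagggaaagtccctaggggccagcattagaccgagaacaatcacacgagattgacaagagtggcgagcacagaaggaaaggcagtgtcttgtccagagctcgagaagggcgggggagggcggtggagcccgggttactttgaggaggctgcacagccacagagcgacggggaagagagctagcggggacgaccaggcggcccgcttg
Csf2rb2 promoter, chr15:78305672-78305971, minus strand: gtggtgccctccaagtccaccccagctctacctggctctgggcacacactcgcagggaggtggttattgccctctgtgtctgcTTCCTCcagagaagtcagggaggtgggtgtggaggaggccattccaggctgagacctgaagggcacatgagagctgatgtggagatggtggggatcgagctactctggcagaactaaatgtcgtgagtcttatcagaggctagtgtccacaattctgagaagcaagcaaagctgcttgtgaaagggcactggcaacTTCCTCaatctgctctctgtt
Csf2rb2 had 2 matches, starting 167 bases before the start site and at base 30 after it. Csf2ra had 2 and Csf3r had 1, so among these 4 genes the letters were present in called and uncalled members alike, and Csf1 had none. Among all 32851 promoters of this length, 28.3% held GAGGAA, 2.72% the composite, 3.44% the repeat and 7.81% the AP-1 letters.

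Gene counts per library ranged from 3658917 to 11098363, and p-values measure the spread between these libraries, each labelled as coming from its own brain. Irf8 itself was counted in every library, at 4084, 12022 and 10179 in WT and 4628, 7243 and 7834 in IRF8KO replicates 1 to 3, and was not called (log2 fold change −0.44, SE 0.33; edgeR adjusted p = 0.368), except with library size alone (−0.90), and was at −0.11 without WT replicate 3. A whole-gene count cannot tell a working transcript from one lacking an exon, so all directions rest on the labels. Apoe took 25.5% to 33.7% of gene counts in IRF8KO and at most 0.324% in WT, which makes levels sensitive to scaling. Levels below are counts per M reads (CPM, 1 M being 1000 times 1000) after TMM scaling. TMM trims genes with extreme fold changes or levels before it sets the scaling. Of 12 microglial markers, all tested, 7 fell and 1 rose (edgeR), 66.7% against 19.1% of all tested genes. Their median log2 fold change was −1.72 against −0.11, and Sall1 had 0 counts in all IRF8KO libraries. Tmem119, the most abundant of them, and Olfml3 were abundant in all 6 libraries. WT replicate 3 stood apart from the other WT libraries in immediate early genes, which are known to respond to cell handling: their summed level was 906 CPM there, 6113 and 11560 CPM in WT replicates 1 and 2, and 877 to 1133 CPM in IRF8KO.

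**Figure D1:**
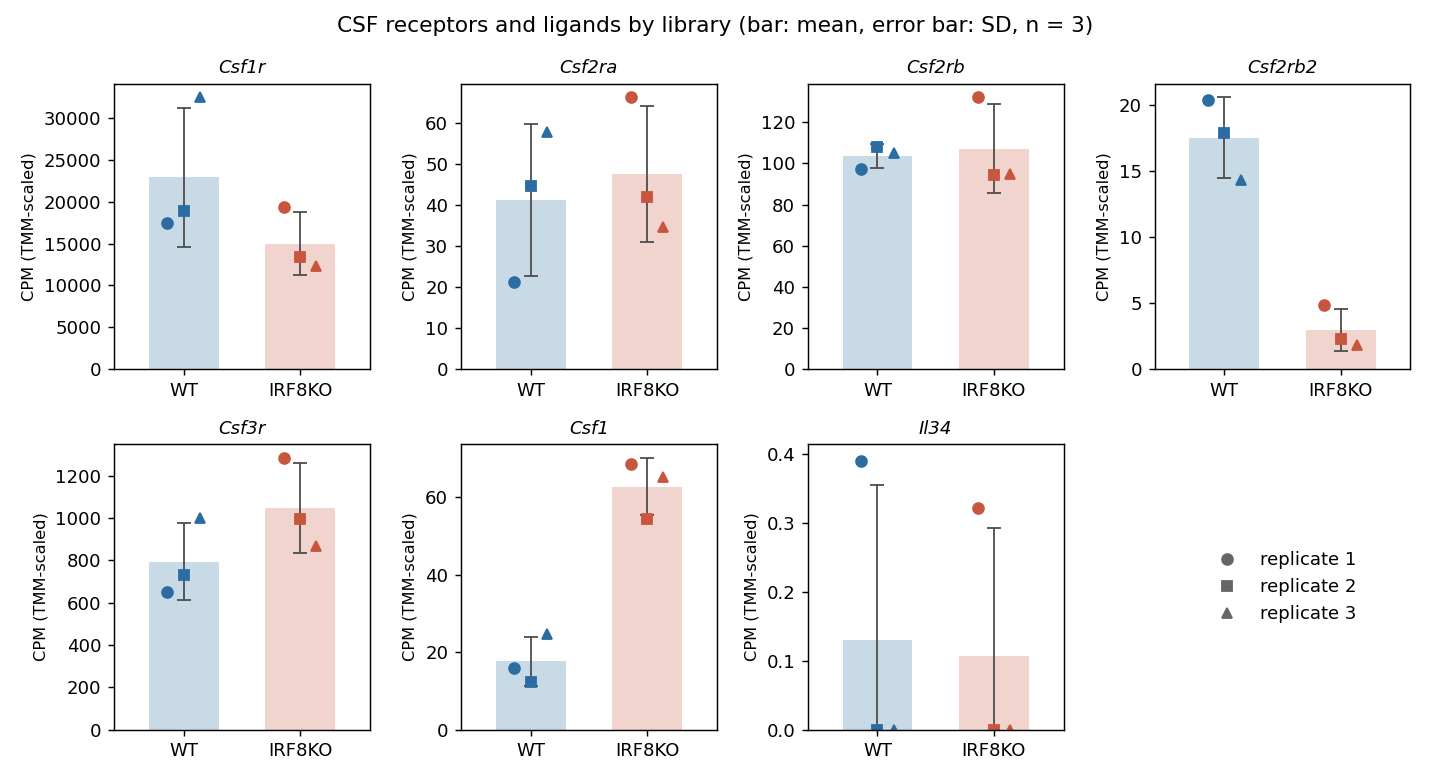
TMM-scaled CPM of each member in WT (blue) and IRF8KO (red) libraries, with points by replicate, bars at the mean and error bars of 1 SD (n = 3). The groups separate for Csf2rb2 and Csf1 and overlap for the other 5 genes.

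Csf1, the ligand of CSF1R (chromosome 3, 107741048 to 107760469, minus strand), was the member that rose. It had 16.0, 12.2 and 24.7 CPM in WT replicates 1 to 3 and 68.5, 54.4 and 65.3 CPM in IRF8KO replicates 1 to 3. Every IRF8KO library exceeded every WT library, and the lowest IRF8KO value was above the highest WT value by more than the SD of either group. The means were 17.6 ± 6.38 and 62.7 ± 7.41 CPM (SD, n = 3), a rise of 3.57-fold with a 95% interval of 2.18 to 5.84. The log2 fold change of 1.83 (SE 0.33) had an edgeR adjusted p = 0.0026. The raw counts behind these levels were 82, 173 and 179 in WT and 427, 606 and 602 in IRF8KO. A larger absolute fold change was seen in 14.9% of tested genes. The call held in all 17 alternative analyses, with log2 fold changes from 1.37 with library size alone to 2.20 without WT replicate 3. No exon of Csf1 overlaps another gene, and none of its 50-base words occurs in another gene's transcripts.

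Markers of other cells that can make CSF1 also differed between the groups. Of 12 markers of border-associated macrophages, which line the vessels and meninges, 8 were tested and all 8 rose (edgeR). Their summed level was 612 to 835 CPM in WT and 3819 to 5036 CPM in IRF8KO, with Lyve1 and Cd209f at 0 counts in all 6 libraries and Stab1 the most abundant. Summed astrocyte markers were 192 to 223 CPM in WT and 155 to 264 CPM in IRF8KO, with Sox9 at 0 counts in all libraries. Of 7 astrocyte markers tested, 5 rose and 1 fell (edgeR), the one that fell being Slc1a3, the most abundant. Summed endothelial markers were 20.4 to 33.3 CPM in WT and 12.2 to 16.6 CPM in IRF8KO, with 1 of 3 tested markers, Pecam1, falling (edgeR). The part of these markers' cells in the Csf1 result was not tested.

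Il34, the other ligand of CSF1R (chromosome 8, 110741829 to 110805924, minus strand), was close to the limit of detection. It had 2, 0 and 0 counts in WT replicates 1 to 3 and 2, 0 and 0 in IRF8KO. A count of 0 allows up to 3 counts per library, and no difference was detectable at this depth. Summed levels of 12 neuronal markers were 1.35 to 15.9 CPM in WT and 40.0 to 67.9 CPM in IRF8KO, with Snhg11 the most abundant, and 4 of 6 tested rose (edgeR).

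Csf2rb2, the interleukin-3-specific beta chain, was the member that fell. Its level was 20.4, 17.9 and 14.3 CPM in WT replicates 1 to 3 and 4.82, 2.24 and 1.84 CPM in IRF8KO. All WT libraries lay well above all IRF8KO libraries. The means were 17.6 ± 3.06 and 2.97 ± 1.61 CPM (SD, n = 3), so the transcript was 5.99-fold lower in IRF8KO, with a 95% interval of 2.80 to 12.8. The log2 fold change was −2.58 (SE 0.50; edgeR adjusted p = 0.0043). The IRF8KO level rests on few reads, 30, 25 and 17 counts, against 105, 253 and 104 in WT. A larger absolute fold change was seen in 7.15% of tested genes. The call held in all 17 alternatives, with log2 fold changes from −3.18 to −2.32 and a highest BH-adjusted p = 0.034 across edgeR, DESeq2 and limma-voom fits. Lymphocyte markers moved the same way: summed over 12 of them, the level was 519 to 859 CPM in WT and 33.0 to 45.1 CPM in IRF8KO. Ighm was the most abundant, and of 3 tested Ighm and Cd79b fell and Cd4 rose (edgeR), while the defining markers Cd3e, Cd8a, Ms4a1 and Ncr1 had 0 counts in all 6 libraries. The part of these markers in the Csf2rb2 result was not tested.

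Csf2rb, the common beta chain, was not called. It had 97.1, 108 and 105 CPM in WT replicates 1 to 3 and 132, 94.2 and 95.1 CPM in IRF8KO. All WT values lay inside the IRF8KO range. The means were 104 ± 5.77 and 107 ± 21.7 CPM (SD, n = 3), a ratio of 1.03 with a 95% interval of 0.691 to 1.55 (log2 fold change 0.05, SE 0.27; edgeR adjusted p = 0.920). Its direction reversed under 6 of 18 alternatives and is not given as one.

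Within each library the beta-chain genes can be compared without any scaling. Csf2rb2 supplied 17.4%, 14.2% and 11.995% of the counts of the pair in WT replicates 1 to 3 and 3.51%, 2.33% and 1.90% in IRF8KO. Every WT share exceeded every IRF8KO share. The means were 14.5 ± 2.71% and 2.58 ± 0.835% (SD, n = 3), a difference of −11.9 percentage points with an exact two-sided permutation p of 0.10, the smallest that 3 against 3 libraries can give. Counted as 1 gene, the pair had a log2 fold change of −0.14 and was not called (edgeR adjusted p = 0.758).

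Csf2ra (chromosome 19, 61223957 to 61228429, minus strand), the chain that binds GM-CSF, was not called either. It had 21.2, 44.7 and 57.9 CPM in WT and 66.3, 42.0 and 34.6 CPM in IRF8KO replicates 1 to 3. The groups overlapped, with WT replicate 1 lowest and IRF8KO replicate 1 highest. The means of 41.3 ± 18.6 and 47.6 ± 16.6 CPM (SD, n = 3) gave a ratio of 1.15, with a 95% interval of 0.642 to 2.06 (log2 fold change 0.20, SE 0.39; edgeR adjusted p = 0.754). The direction turned in 3 alternatives: without WT replicate 1 (−0.12), without IRF8KO replicate 1 (−0.10) and with library size alone (−0.27).

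Csf1r (chromosome 18, 61100598 to 61132149, plus strand) was the most abundant member by far. It took 2.45%, 2.46% and 2.98% of gene counts in WT replicates 1 to 3, where it ranked the 2nd most counted gene, and 1.34%, 1.37% and 1.02% in IRF8KO, where it ranked 4th, 4th and 5th. The exact 95% binomial intervals, which cover counting error only, spanned 2.43% to 2.46% in WT replicate 1 and 1.01% to 1.03% in IRF8KO replicate 3. With Apoe left out of the total, the shares were 2.45%, 2.46% and 2.99% in WT and 2.02%, 1.84% and 1.42% in IRF8KO, so IRF8KO libraries were lower by either total.

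After TMM scaling the Csf1r difference did not exceed the spread between libraries. Levels were 17419, 18879 and 32513 CPM in WT and 19326, 13358 and 12288 CPM in IRF8KO replicates 1 to 3. WT replicate 3 was far above the other WT libraries, and IRF8KO replicate 1 lay above WT replicates 1 and 2. The means of 22937 ± 8325 and 14991 ± 3792 CPM (SD, n = 3) were 1.53-fold apart, lower in IRF8KO, with a 95% interval of 0.805 to 2.91. The log2 fold change was −0.61 (SE 0.43; edgeR adjusted p = 0.338). It was called only with library size alone (−1.08, SE 0.17; edgeR adjusted p = 0.0040). That scaling moved the median of all genes to −0.61, so relative to that median Csf1r was at −0.47, against −0.50 under TMM. With Apoe left out of the library size Csf1r was at −0.58 (SE 0.19; edgeR adjusted p = 0.063). Both SEs were smaller than under TMM, whose factors were 1.41, 1.30 and 0.917 in WT replicates 1 to 3. The part of these factors in the spread was not tested. Under TMM without WT replicate 3 the log2 fold change was −0.25. Exons of Csf1r overlap those of Hmgxb3 over 15.1% of their length, and without strand reads there cannot be told apart.

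Csf3r (chromosome 4, 126024550 to 126044440, plus strand), the G-CSF receptor, was the next most abundant member. It had 651, 731 and 999.6 CPM in WT and 1284, 995 and 869 CPM in IRF8KO replicates 1 to 3. The groups overlapped through WT replicate 3. The means were 794 ± 183 and 1049.6 ± 213 CPM (SD, n = 3), a ratio of 1.32 with a 95% interval of 0.821 to 2.13 (log2 fold change 0.40, SE 0.32; edgeR adjusted p = 0.402). Without WT replicate 3 it was called, at 0.63 (edgeR adjusted p = 0.036), and with library size alone the direction turned (−0.08).

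Since Csf3r marks neutrophils elsewhere in the body, their other markers were read beside it. Summed over 12 neutrophil markers, the level was 0 to 0.195 CPM in WT. It was 366 CPM in IRF8KO replicate 2, led by S100a8, and 5.78 and 2.06 CPM in IRF8KO replicates 1 and 3, with Mmp8 at 0 counts in all libraries. The Csf3r level of IRF8KO replicate 2 was the middle of its group, and without that library the log2 fold change was 0.45. In the WT libraries 10 of the 12 markers had 0 counts, and Csf3r had 3345, 10327 and 7251 counts. The part of neutrophil RNA in the IRF8KO level of Csf3r was not tested. Of the 50-base words of Csf3r transcripts, 10.7% also occur in transcripts of other genes.

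**Figure D2:**
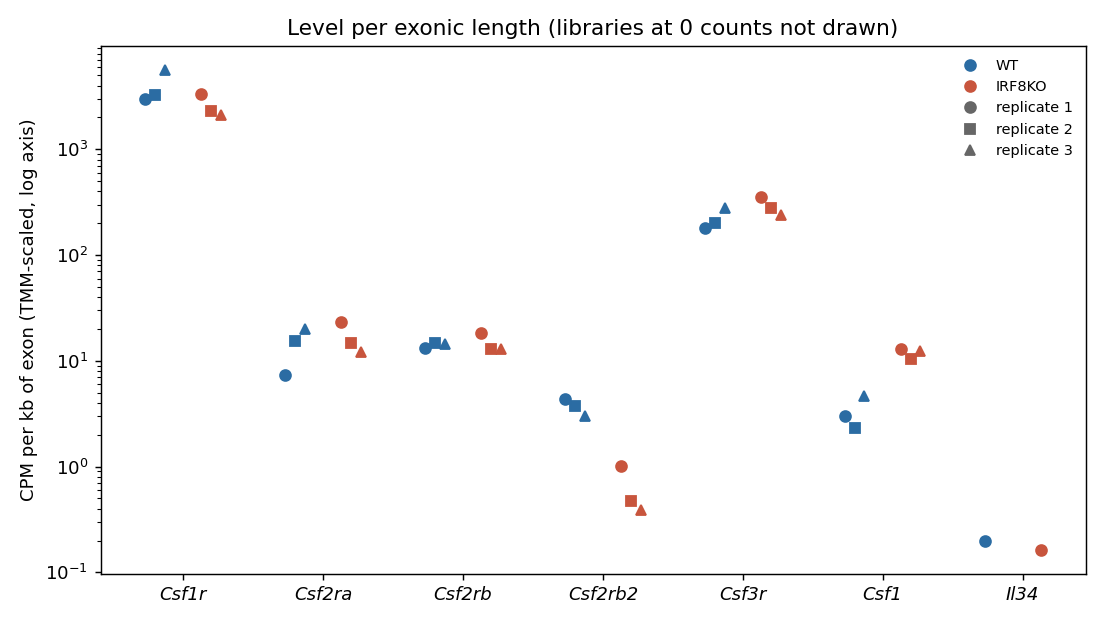
Level per exonic length of each member (TMM-scaled CPM per kb of exon, log axis) in WT (blue) and IRF8KO (red) libraries, with symbols by replicate; libraries at 0 counts are not drawn. Csf1r and Csf3r stand above the rest in both groups, and Csf1 moves from the level of Csf2rb2 in WT to about that of Csf2rb in IRF8KO.

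Per exonic length, which allows genes to be compared, the members kept a wide order. In WT the mean levels in CPM per kb were 3972 ± 1442 for Csf1r, 220.0 ± 50.6 for Csf3r, 14.4 ± 6.47 for Csf2ra, 14.2 ± 0.793 for Csf2rb, 3.70 ± 0.646 for Csf2rb2 and 3.34 ± 1.21 for Csf1 (SD, n = 3). Csf2ra did not differ from Csf2rb beyond its spread, nor Csf2rb2 from Csf1. In IRF8KO the means were 2596 ± 657 for Csf1r, 291 ± 59.0 for Csf3r, 16.6 ± 5.77 for Csf2ra, 14.7 ± 2.98 for Csf2rb, 11.9 ± 1.40 for Csf1 and 0.626 ± 0.340 for Csf2rb2 (SD, n = 3). There Csf2ra, Csf2rb and Csf1 overlapped, and Csf2rb2 lay below them all. Il34 was last in both groups.

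**Figure D3:**
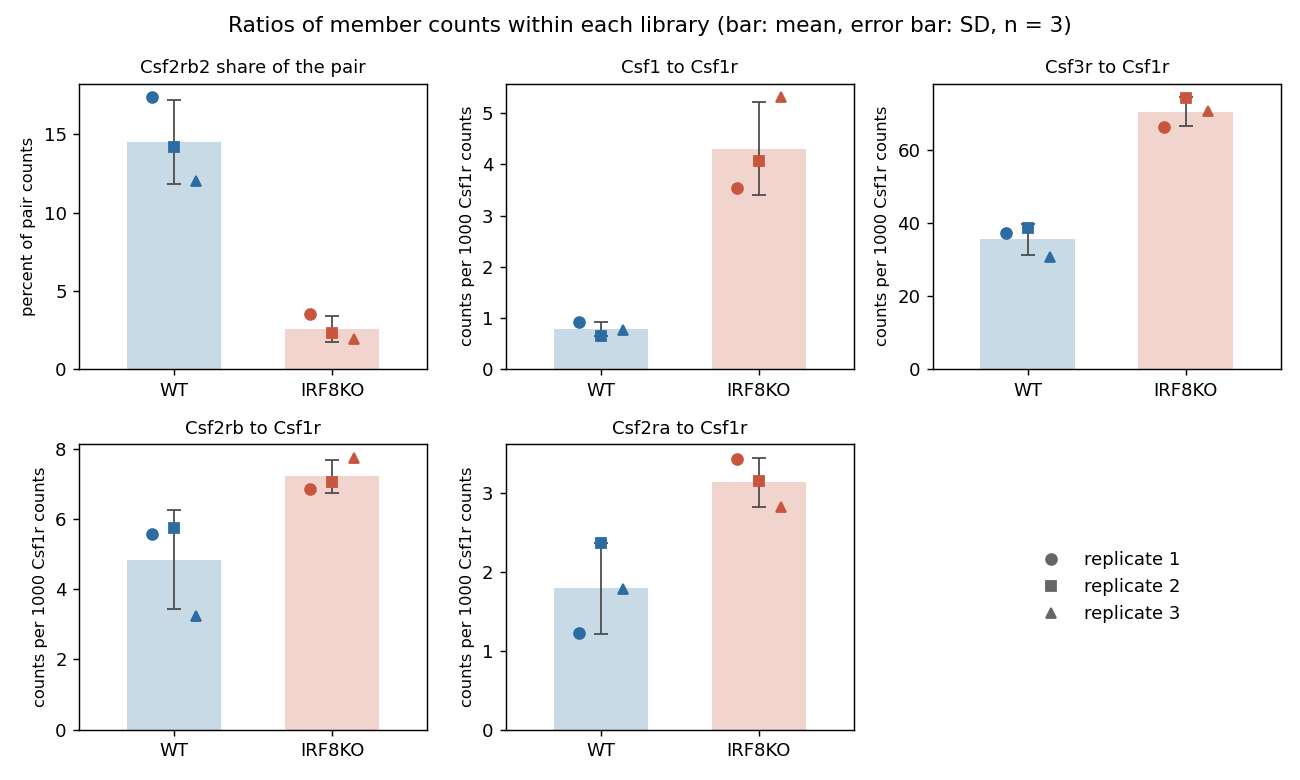
Ratios of member counts within each library, in WT (blue) and IRF8KO (red), with points by replicate, bars at the mean and error bars of 1 SD (n = 3): the Csf2rb2 share of the beta-chain pair in percent, and 4 members per 1000 Csf1r counts. In each panel the groups do not overlap, and only the Csf2rb2 share is lower in IRF8KO.

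Ratios to Csf1r, chosen after the values were seen, do not depend on scaling. Csf1 had 0.916, 0.649 and 0.759 counts per 1000 Csf1r counts in WT replicates 1 to 3 and 3.55, 4.07 and 5.31 in IRF8KO. Csf3r had 37.4, 38.7 and 30.7 counts per 1000 in WT and 66.5, 74.5 and 70.7 in IRF8KO, means of 35.6 ± 4.27 and 70.6 ± 4.02 (SD, n = 3). Csf2rb averaged 4.85 ± 1.40 and 7.21 ± 0.469 counts per 1000, and Csf2ra 1.79 ± 0.575 and 3.13 ± 0.308, in WT and IRF8KO (SD, n = 3). None of the 4 ratios overlapped between groups, and each was higher in all 3 IRF8KO libraries. The same held for 35.7% of all 11040 tested genes other than Csf1r, and 5.42% were lower without overlap; the share of Csf1r itself was lower in IRF8KO, as given above. The TMM-scaled levels of Csf3r, Csf2rb and Csf2ra overlapped, so their ratios describe a difference relative to Csf1r only. These ratios share a denominator, and each had an exact two-sided permutation p of 0.10, the smallest that 3 against 3 can give, and 0.10 again after Benjamini-Hochberg adjustment over 5 ratios.

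**Figure D4:**
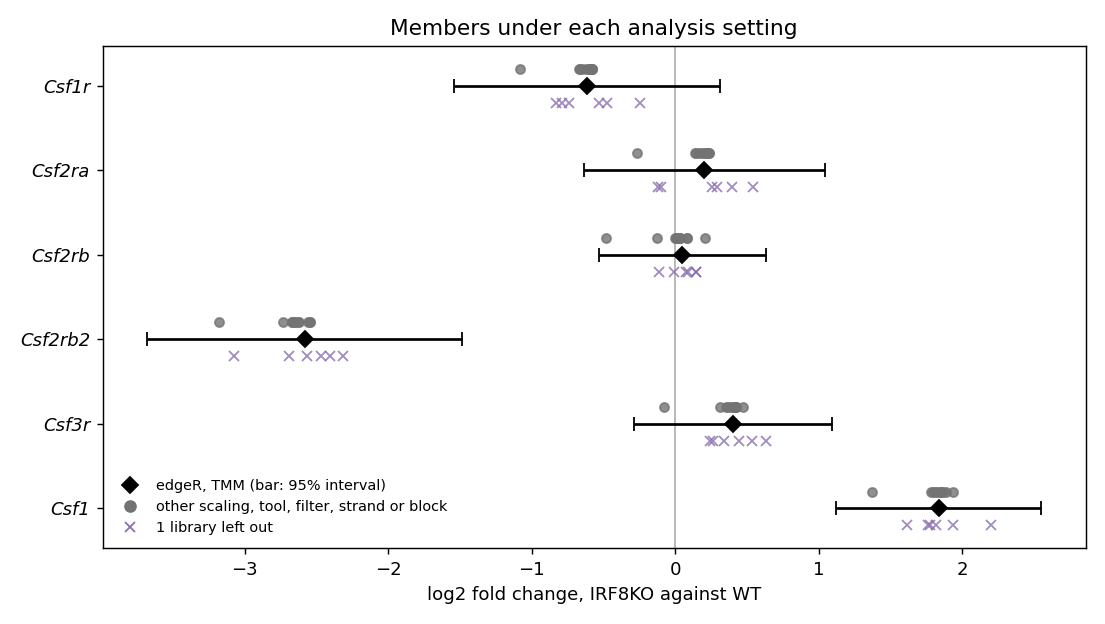
Log2 fold change of the 6 tested members, IRF8KO against WT: black diamonds with 95% intervals are the edgeR fit with TMM, grey circles other scalings, tools, filters, strand counts or the replicate block, and purple crosses fits with 1 library left out. Csf2rb2 stays at or below −2.32 and Csf1 at or above 1.37, whereas the intervals of the other 4 span 0.

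By a rule of likeness, the tested genes with at least 10 CPM whose log2 CPM profile over the 6 libraries lay closest to each member (Euclidean distance after subtracting the gene's mean) were listed. Closest to Csf1 were Selenom, Hgsnat and Coq7, at distances of 0.228, 0.244 and 0.314. Closest to Csf2rb2 were Galnt4, Tnfrsf21 and Vhl, at 0.747, 0.755 and 0.767, so none of the 6173 genes compared followed it as nearly. Closest to Csf1r were Tmem43, Rps6ka1 and Pnpla7, at 0.124, 0.153 and 0.161. Csf3r lay nearest to Atp6v0a1, Myo1f and Dtnbp1, at 0.0915, 0.134 and 0.141. Csf2rb lay nearest to Mmadhc, H2-T24 and Rnf135, at 0.108, 0.133 and 0.170. Csf2ra lay nearest to Eno3, Zfp94 and Cdc42ep4, at 0.245, 0.440 and 0.479. With 6 libraries, closeness of this kind describes these samples only.

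Other ligands and receptors of the same families had few counts. Of 14 such genes, 3 passed the filter and 0 of these 3 were called, where 19.1% of all tested genes were. The adjusted p (edgeR) was 0.778 for Il3ra, 0.798 for Flt3l and 0.144 for Pdgfrb. Pdgfrb had 5, 1 and 0 counts in WT and 45, 17 and 1 in IRF8KO. Its log2 fold change was 3.27, from 1.46 to 5.67 with 1 library left out. It was called only without the filter (edgeR adjusted p = 0.047). The list had 2 calls without WT replicate 3 or without the filter, and 1 without WT replicate 1 or without IRF8KO replicate 1. The ligand genes Csf2, Csf3, Il3 and Il5 had 0 counts in all 6 libraries, as did Il5ra, which allows up to 3 counts in each. Among the untested genes Ptprz1, a receptor for interleukin-34, had 0 counts in all WT libraries and 8, 24 and 16 in IRF8KO. Kitl, the ligand of the receptor KIT, had 29, 57 and 7 counts in WT and 7, 7 and 8 in IRF8KO. Il5ra, Ptprz1 and Kitl were named after their values were seen. Il3ra, the binding chain for interleukin-3, was counted 5, 12 and 14 times in WT and 13, 11 and 17 times in IRF8KO.

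**Figure D5:**
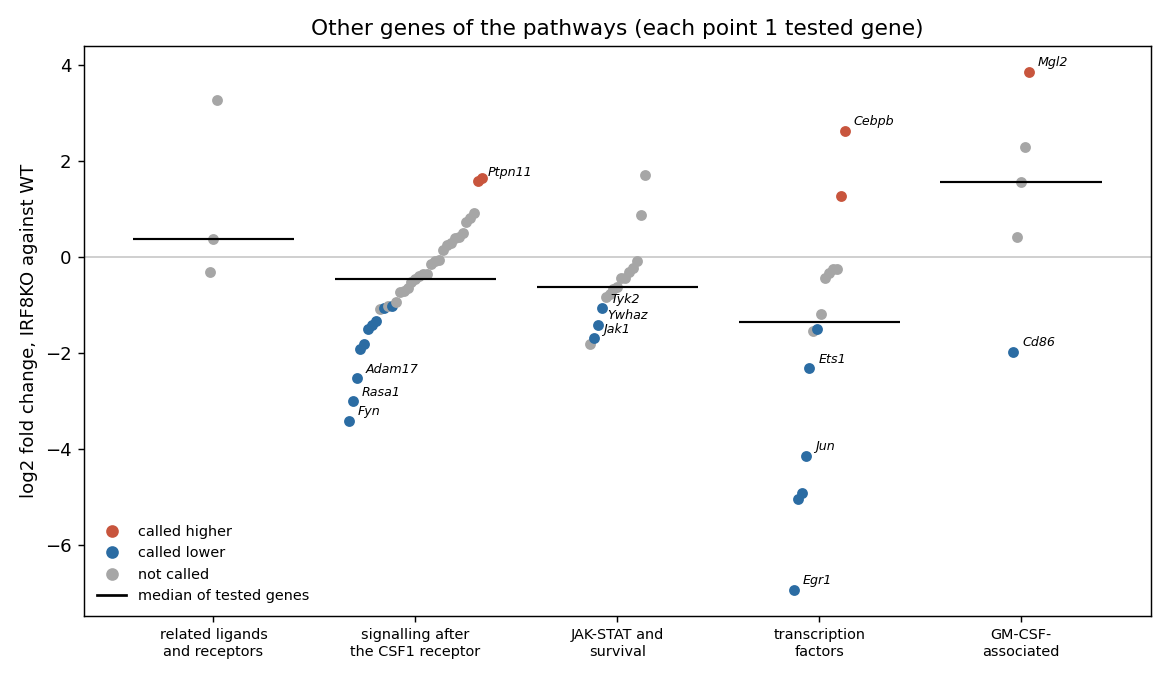
Log2 fold change, IRF8KO against WT, of each tested gene in 5 lists around the CSF receptors: red points were called higher, blue called lower, grey not called, and black lines mark list medians. Calls in the signalling list are mostly blue, 10 of 12, and the transcription factor list spans −6.93 to 2.63.

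Downstream of CSF1R, more genes fell than rose. Of 36 genes for adaptors, kinases, phosphatases and the receptor-shedding protease, 35 were tested, 10 fell and 2 rose (edgeR), 34.3% against 19.1% of all tested genes, with a median log2 fold change of −0.45 against −0.11. Fyn, a Src-family kinase, fell from 14.0 ± 2.65 to 1.33 ± 0.449 CPM, Rasa1, which switches off Ras, from 8.89 ± 3.07 to 1.09 ± 0.258, and Adam17, which sheds CSF1R from the surface, from 99.4 ± 49.4 to 17.2 ± 11.1 CPM (SD, n = 3). The part of the lymphocyte markers given above, which were also lower in IRF8KO, in the fall of Fyn and of this list was not tested. Ptpn11, the phosphatase SHP2, rose from 9.39 ± 1.45 to 28.1 ± 6.44 CPM. On the log2 scale the fold changes were −3.40 for Fyn, −2.995 for Rasa1, −2.52 for Adam17 and 1.58 for Ptpn11, with edgeR adjusted p = 0.0010, 0.0047, 0.0051 and 0.0094. Adam17 was at −1.93 and −1.66 with the counts of the first and the second strand alone and at −3.18 without IRF8KO replicate 2, each time called. Ptpn11 lost its call without IRF8KO replicate 3 (edgeR adjusted p = 0.070) and with library size alone (0.110). The other called increase was Tyrobp, the adaptor DAP12, from 2224 ± 1052 to 6972 ± 1238 CPM. Tyrobp was picked after its values were seen. The list's count of calls moved with single libraries: it was 5 without WT replicate 2, 7 without IRF8KO replicate 1, 3 without IRF8KO replicate 3 and 20 without WT replicate 3.

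The listed JAK-STAT and survival genes were called at about the share of all tested genes. Of 16 genes, 15 were tested, 3 fell and none rose, 20% against 19.1% of all tested genes, with a median log2 fold change of −0.62 (edgeR). The 3 were Jak1 and Tyk2, both Janus kinases, at −1.68 and −1.07, and Ywhaz, a 14-3-3 adaptor that binds the beta chain, at −1.41, with edgeR adjusted p = 0.020, 0.041 and 0.013. None of these 3 calls held without WT replicate 2, without IRF8KO replicate 1 or without IRF8KO replicate 3, and that of Tyk2 was also lost without IRF8KO replicate 2 and with DESeq2's size factors in edgeR (RLE). With Apoe left out of the library size, Jak1 and Ywhaz were not called. The list had 0, 1 and 0 calls in the first 3 of these fits and 5 without WT replicate 3. Jak2, the kinase bound to the beta chain and named after its values were seen, had 42, 112 and 17 counts in WT and 1, 32 and 19 in IRF8KO, overlapped and was not called (log2 fold change −1.81; edgeR adjusted p = 0.150). Stat5b, a main effector of GM-CSF, went from 63.8 ± 2.61 to 40.5 ± 9.53 CPM without overlap and was not called (edgeR adjusted p = 0.119), except with library size alone.

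Transcription factors known to act on Csf1r or to set the response to CSF1 moved in both directions. All 14 were tested, 2 rose and 6 fell, 57.1% against 19.1% of all tested genes, with a median log2 fold change of −1.35 (edgeR). Cebpb rose from 121 ± 27.4 to 752 ± 185 CPM. Ets1 fell from 45.5 ± 11.8 to 9.07 ± 4.85 CPM. Of the 6 that fell, 4 are immediate early genes, whose summed level differed between WT replicate 3 and the other WT libraries as given above: Egr1, Jun, Fos and Egr2, with log2 fold changes of −6.93, −4.14, −4.92 and −5.04. Fos had 1 count and Egr2 had 0 in WT replicate 3, against 3305 and 160 in WT replicate 1 and 12433 and 1193 in WT replicate 2. The part of that difference in these 4 falls, and in the list's share of calls and median, was not tested. Fos and Egr2 were named after their values were seen. The adjusted p (edgeR) was 0.00026 for Cebpb, 0.0039 for Ets1, 0.0020 for Egr1 and 0.0065 for Jun. Egr1 was at −5.37 and not called with limma-voom (adjusted p = 0.055), and at −5.86 without WT replicate 2. Jun values overlapped between groups, its call was lost without IRF8KO replicate 3, and it was at −3.13 with limma-voom and −3.16 without WT replicate 2. Spi1, which encodes PU.1, was picked after its values were seen and was not called, at 506 ± 153 CPM in WT and 427 ± 61.5 CPM in IRF8KO. The list had 5 calls without WT replicate 2, 5 without IRF8KO replicate 1 and 4 without IRF8KO replicate 3.

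Genes that macrophages raise under GM-CSF were mostly too low to test. Of 12, 5 were tested, Mgl2 rose and Cd86 fell (edgeR), 40% against 19.1% of all tested genes, with a median log2 fold change of 1.55 against −0.11. Mgl2, a lectin gene, went from 0.230 ± 0.398 to 3.32 ± 0.963 CPM (edgeR adjusted p = 0.043) and was called in 7 of 16 alternatives. Its log2 fold change of 3.85 went from 3.10 without WT replicate 2, where the call was lost, to 7.94 without WT replicate 3, the only WT library with counts of it. Cd86, which encodes a T-cell costimulator, fell from 143 ± 60.5 to 36.5 ± 19.8 CPM (edgeR adjusted p = 0.0087), a call lost without IRF8KO replicate 1 or replicate 3. Irf4 and Fabp5 were not called (edgeR adjusted p = 0.050 and 0.144), though Irf4 was called in 5 of 16 alternatives and Fabp5 in 0 of 16. Of the 7 untested genes, Cd209a and Fabp4 had 0 counts in all libraries, and Pparg, Ccl17 and Ccl22 had at most 5 counts in any library. Cish, a target of STAT5 also in the JAK-STAT list, had 1, 0 and 1 counts in WT and 9, 37 and 24 in IRF8KO, and Car4 had 15, 0 and 10 counts in WT and 2, 0 and 0 in IRF8KO. These 7 were named after their values were seen. Without WT replicate 3 the list had 4 calls, and without IRF8KO replicate 3 it had 0. All 8 tested markers of border-associated macrophages rose, as given above, and of 3 tested dendritic cell markers 1 rose and 1 fell (edgeR). The part of these markers' cells in the changes of this list was not tested.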

How the data were processed

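Raw counts per gene, deposited by the authors for 6 libraries, were used as given. The submitters' processing notes name STAR 2.5.2b, Picard 2.17.11, Subread, featureCounts and bcl2fastq and the build mm10; which tool made which value, and the annotation release, are not given in the sources used here. Each file holds 4 summary lines, left out of library sizes, and counts without and by strand; the count without strand was used, as 49.8% to 50.3% of stranded counts lay on the first strand. Per the labels' protocols, cDNA was made with SMART-Seq v4 and Nextera XT, without molecular identifiers. Of 49585 genes, 49326 matched GENCODE M21 (GRCm38), the source of coordinates and exonic lengths; 259 did not.

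Counts were tested with edgeR 4.0.16 (R 4.3.3): filter with a minimum count of 10, TMM, quasi-likelihood F test on genotype, Benjamini-Hochberg over 11041 genes, call under 0.05. Genes left untested made up 0.313% or less of each library's counts. SE and 95% intervals came from the F statistic. The code was tested on simulated data. No 2 libraries of a group were the same library: chi-square per degree of freedom over genes was at least 8.57. Alternatives used DESeq2 1.42.0 and limma 3.58.1 (voom), other scalings, filters and strands, a replicate block and each library left out. The members and lists were chosen with earlier results of these data known. Genes named are the members, Irf8, 4 ligands, the 4 smallest p of each pathway list, the 3 nearest profiles per member, markers, and Apoe and Hmgxb3 for scaling and overlap; others are said in the text to be named after their values were seen.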

Additional observations from a re-analysis of the deposited data

How the results depend on the processing

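Over all alternatives run, Csf1 and Csf2rb2 kept direction and call. With 1 library left out, log2 fold changes spanned 1.61 to 2.20 for Csf1, −3.08 to −2.32 for Csf2rb2, −0.83 to −0.25 for Csf1r, −0.12 to 0.54 for Csf2ra, −0.12 to 0.14 for Csf2rb and 0.24 to 0.63 for Csf3r, and the Csf2rb2 share difference spanned −13.2 to −10.5 percentage points. Csf2rb turned to −0.01 without WT replicate 1 and −0.12 without IRF8KO replicate 1. Library size alone gave −1.08 for Csf1r (called), −0.27 for Csf2ra, −0.48 for Csf2rb, −0.080 for Csf3r and −0.086 for Il3ra. Of all its calls 25.4% were higher, against 50.5% under TMM. Csf2rb was also below 0 with upper quartile factors (−0.0050), the first strand column (−0.12) and the pair summed (−0.14). The cause of these turns was not tested.

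Same-numbered deviations from the group means correlated at −0.26, 0.33 and 0.11, and not every sample correlated best with its own number. Deviations within a group are tied to each other, so these values cannot show whether same-numbered samples shared a preparation. With the replicate block, 2353 genes were called against 2109, Csf1 was 1.88, Csf2rb2 −2.67 and Csf1r −0.58, and no member's call changed.

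Counts of called genes ranged, with 1 library left out, from 910 to 4003 for all genes, 0 to 2 for related ligands and receptors, 3 to 20 for signalling, 0 to 5 for JAK-STAT, 4 to 10 for transcription factors and 0 to 4 for GM-CSF genes. Other alternatives moved these from their main counts of 0, 12, 3, 8 and 2. With library size alone JAK-STAT had 8 and GM-CSF genes 1. With the first strand column they had 5 and 4. Without a filter the related genes had 2 and GM-CSF genes 4. GM-CSF genes had 1 with upper quartile factors, with Apoe left out of the library size, or with at least 10 counts in every library, and transcription factors had 5 with limma-voom. Of 329 values for 20 other named genes, 292 kept direction and call. Depth limits Il34, and Csf2rb2 in IRF8KO.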
